A study of Homo sapiens with 20 samples.

Results

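The late phase of mRNA decay was followed in pancreatic progenitors (PPs) that lack the m6A demethylase ALKBH5, between 1 h and 3 h after transcription was blocked with actinomycin D (Act D). The 2 libraries of *ALKBH5* knockout (A5-KO) PPs at 3 h were compared with the 2 at 1 h, the 2 at 2 h served as the intermediate time, and a gene entered when its mean over the 4 libraries at 1 h and 3 h was at least 5 CPM, a unit that gives each gene its share of the library. This left 10203 of the 60623 listed genes, in 6 of the 20 samples of the series. The cells came from MEL1, a human embryonic stem cell line with a GFP reporter in *INS*, differentiated to the PP stage. The A5-KO line was made by Cpf1 cutting in the first exon of *ALKBH5*, with single colonies picked and grown, so it stands for few founder cells. The wild type (WT) PPs had the same treatment times, and all 6 A5-KO and 6 WT libraries used here had received 1 μg/ml Act D for 1, 2 or 3 h; the untreated libraries of each genotype (0 h) are cited only for reference. The study calls the libraries of a group biological replicates, without saying whether these were separate differentiations, and p-values measure only the spread between these libraries. For cultured cells it states that the wells of a replicate came from a common batch, allotted at random to the treatments. The labels do not say whether equal replicate numbers mark a shared batch.

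Act D binds DNA and stops RNA polymerases, so an mRNA that is no longer made falls at the pace of its own degradation. Messages for transcription factors and signalling regulators are known for fast turnover, whereas those for ribosomal proteins, metabolic enzymes and secreted or matrix proteins are known to persist for many hours. m6A, a methyl mark on adenosine in mRNA, is bound by YTH-domain readers, of which YTHDF2 brings the message to the deadenylation machinery, and ALKBH5 removes the mark. Because CPM is a share of each library, and total RNA falls under Act D, a value that stays level is an mRNA that fell as fast as the library did, and a rise is slower loss than the rest. In bulk libraries, fewer cells of a type and less RNA per cell cannot be told apart.

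The 6 A5-KO libraries held between 30516384 and 35206514 reads. In A5-KO, *ALKBH5* itself went from 11.1 and 10.1 CPM at 1 h through 8.38 and 9.31 to 8.98 and 7.43 at 3 h, whereas WT had 133 and 126 CPM at 1 h. All 9 progenitor markers were measurable, and their summed level went from 418 and 392 CPM at 1 h through 198 and 192 to 135 and 117 at 3 h. The 8 endocrine markers summed to between 2.85 and 5.46 CPM, with *GCG* at 0 in all 6 libraries and *INS* at 0 in 5 of 6. Messages of liver type were also present, with a sum of 6 hepatocyte markers between 1691 and 2037 CPM, as were those of 6 mesenchyme markers, between 133 and 202 CPM, and 5 intestinal markers, between 309.8 and 458 CPM. In the pluripotency list *POU5F1* and *NANOG* were at 0 in all 6 libraries and *LIN28A*, at 221 to 270.0 CPM, held most of the sum. How reads of overlapping or duplicated genes were counted is not given in the sources used here, so a 0 need not mean an absent mRNA. The part of these other cell types in the changes below was not tested. Replicate 2 at 1 h stood apart from replicate 1 for genes of many exons, as given below beside the results it touches.

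Decline was far more common than rise. Calls needed an adjusted p (limma, Benjamini-Hochberg) under 0.05 and a change of over 1.5-fold. From 1 h to 3 h, 1738 genes were called lower in A5-KO PPs, which is 17.0% of the 10203 tested, and 95 were called higher, or 0.931%. The median of all genes was -0.10 on the log2 scale, with quartiles of -0.40 and 0.09. When libraries were rescaled so that the typical gene was level, by median-of-ratios, that median became 0.04, and the calls became 1276 lower and 285 higher, so that 81.7% of calls were falls rather than 94.8%. Quantile normalization gave 974 lower and 528 higher. A member's change is therefore best read against the median of -0.10. With 2 libraries against 2, an exact permutation test of a single gene cannot go below a two-sided p of 0.33, and the adjusted p-values below rest on limma's pooled spread over all genes.

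The falls were spread over a wide range of rates. Between 1 h and 3 h, 46 genes fell by 2 or more log2 units, which corresponds to a relative half-life of 1 h or less when 2 h is divided by the log2 fall. A further 657 genes fell by between 1 and 2 units, 1394 by between 0.5 and 1, and 4340 by less than 0.5, while 3766 rose by any amount. The last class is the stable residue, and at 1 h it held 55.6% of all reads, against 0.163%, 1.81% and 4.76% for the 3 classes that fell by over 0.5. Only 95 of its 3766 genes were called, and its border at 0 depends on the scaling, with 5557 genes above it under median-of-ratios. The classes are drawn from the change itself, so no test was made between them on it. Among the called falls, the median relative half-life was 2.21 h. The limit of 5 CPM admitted 464 genes whose mean at 3 h was below it and 57 whose mean at 1 h was below it. Genes of the first kind had to be lower at 3 h, and they make up 378 of the 1738 called falls. The 46 genes of the fastest class had medians of 15.0 CPM at 1 h and 3.42 CPM at 3 h. Many of them were thus of the first kind, and comparisons with that class below are descriptions. Of the genes described below, *FOXA3*, *HES1*, *IRF2BP1*, *IRF2BP2*, *ZNF579*, *ZNF92*, *DCP1B* and *CNOT6L* entered in this way, and their values are given as a description. Just inside the limit, *ERCC6L* stood at 7.31 and 7.01 CPM at 1 h and 3.35 and 2.34 at 3 h, with *FZD9* and ENSG00000260196 next to it. Just outside, *C3orf14* stood at 5.72 and 4.56 CPM at 1 h and 5.51 and 4.20 at 3 h, beside *LINC01315* and ENSG00000232389.

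The 2 h libraries lay between the outer times. Of the 1738 called falls, 1633 had a 2 h mean between the 1 h and 3 h means, and in 1312 all 6 libraries were in order, with both 1 h values above both 2 h values and both of these above both 3 h values. In all 1738 both 1 h values lay above both 3 h values, as in 46.3% of all genes tested. Only the place of the 2 h values was therefore free, and the share of all genes in full order was not taken. By 2 h a median of 56.9% of the log2 fall was complete, with quartiles of 45.3% and 71.1%. From 1 h to 2 h, 894 of all genes tested (8.76%) were called lower and 69 (0.676%) higher, and from 2 h to 3 h these were 468 (4.59%) and 115 (1.13%). The falls from 1 h to 2 h numbered 552 or 461 without replicate 1 or 2 at 2 h. Those from 2 h to 3 h numbered 214 or 234 without replicate 1 or 2 at 2 h and 212 without replicate 2 at 3 h. The same 1738 genes had changed by a median of -0.58 in the first hour, from 0 h to 1 h, a comparison that shares the 1 h libraries.

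Progenitor transcription factors were among the fastest falling mRNAs. Of 24 members tested out of 28 listed, 17 were called lower, none was called higher and 7 did not pass, against the 17.0% called lower over all genes, and the median change was -1.30. Of those 17, 5 had entered only through their level at 1 h. So had 4 of the 15 signalling inhibitors, 5 of the 16 early response genes, 2 of the 7 Notch genes and 21 of the 72 ZNF genes called lower. The same held for 2 of the 12 mRNA decay machinery genes and 1 of the 8 m6A genes called lower. The counts of all these lists are therefore descriptions too. *PDX1*, the homeobox factor that the pancreas needs to form, went from 53.3 and 51.5 CPM at 1 h through 18.9 and 21.9 to 12.7 and 11.5 at 3 h. Each hour's pair lay wholly below the pair before it, and the change from 1 h to 3 h was -2.10 ± 0.12 (SE; limma, adjusted p = 4.2e-07). *NKX6-1*, which marks progenitors able to give beta cells, fell from 97.6 and 97.2 CPM through 49.1 and 44.6 to 30.7 and 25, a change of -1.81 ± 0.11 (limma, adjusted p = 7.0e-07). *SOX9*, a factor that keeps progenitors in their state, fell from 62.5 and 60.3 CPM through 28.0 and 26.8 to 16.8 and 16, or by 1.90 on the log2 scale. All 3 lost more before 2 h than after it, at -1.36 and -0.75 for *PDX1*, -1.06 and -0.76 for *NKX6-1*, and -1.16 and -0.74 for *SOX9*.

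**Figure D1:**
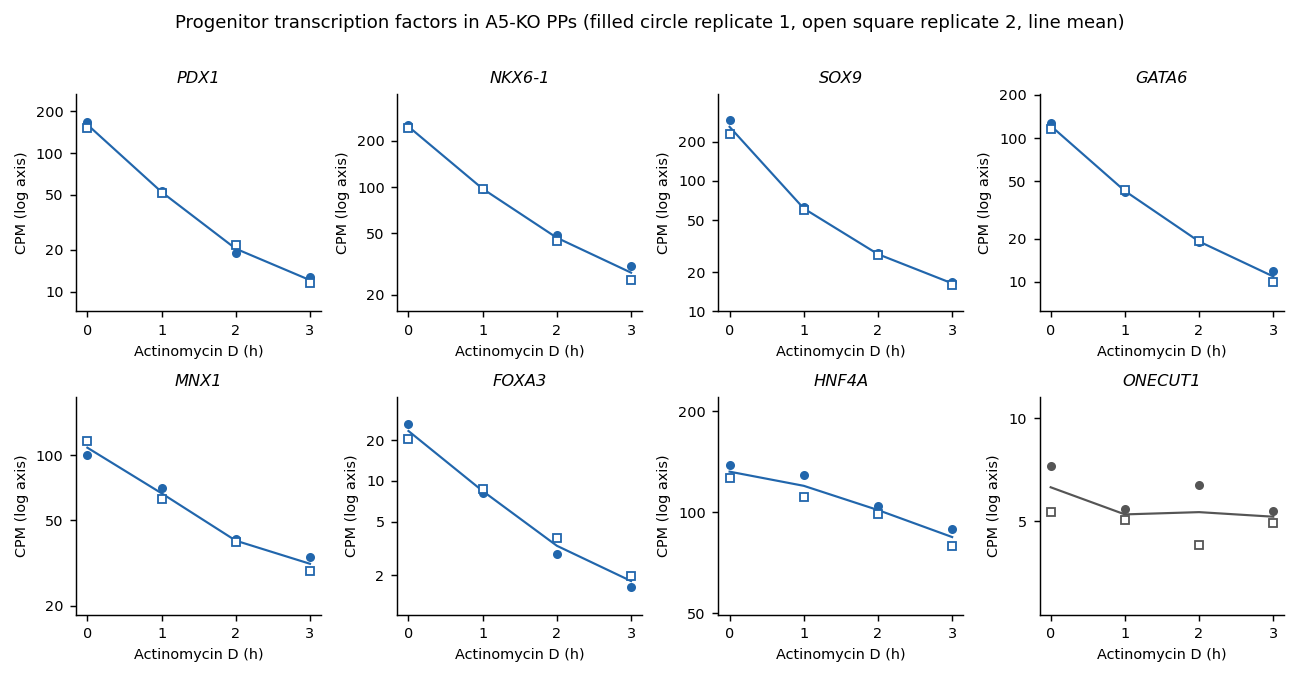
CPM on a log axis against hours of Act D for 8 progenitor transcription factors in A5-KO PPs, with both libraries and their mean at each time; 0 h is untreated. For *PDX1*, *NKX6-1*, *SOX9*, *GATA6*, *MNX1* and *FOXA3* both libraries lay lower at each later time, *HNF4A* went from 129 and 111 CPM at 1 h to 89.4 and 79.4 at 3 h, and *ONECUT1* stayed between 4.26 and 7.23 CPM and was not called.

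The remaining members spanned a range of rates. *FOXA3*, a forkhead factor of endoderm, fell from 8.08 and 8.73 CPM at 1 h through 2.86 and 3.77 to 1.65 and 1.99 at 3 h. *GATA6*, a zinc finger factor required for pancreas formation, fell from 42.2 and 43.5 CPM to 11.8 and 9.96. *MNX1*, a homeobox factor of the dorsal bud and of beta cells, fell more slowly, from 70.2 and 63.0 CPM to 33.5 and 29.1, which is -1.09 ± 0.10 and a relative half-life of 1.84 h. *HNF4A*, a nuclear receptor of liver and gut endoderm, had the highest mean of the list and was not called, at 129 and 111 CPM at 1 h and 89.4 and 79.4 at 3 h (-0.51). *ONECUT1*, which acts upstream of *PDX1*, was measured near the filter at 5.41 and 5.05 CPM and at 5.37 and 4.93. The relative half-life was 0.951 h for *PDX1* and 3.96 h for *HNF4A*.

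Inhibitors that cells make in response to a signal fell by the largest median of the 20 lists beside the cell type markers. Of 17 tested out of 33 listed, 15 (88.2%, against 17.0% of all genes) were called lower and 2, *SKIL* and *SPRY4*, did not pass. The median was -1.59. *DUSP5*, a nuclear phosphatase of ERK, had the largest fall of all named genes. Its level went from 262 and 284 CPM at 1 h through 73.1 and 68.2 to 18.6 and 15.0 at 3 h, a change of -4.02 ± 0.10 (limma, adjusted p = 5.9e-10) and a relative half-life of 0.497 h. The loss was even over both hours, at -1.95 and -2.07. *DUSP6*, the cytoplasmic ERK phosphatase, fell from 50.6 and 56.1 CPM to 11 and 8.51. *SPRY2*, which dampens receptor tyrosine kinase signals, fell from 47.8 and 47.3 CPM to 12.9 and 9.01. *ID2*, which binds and blocks basic helix-loop-helix factors, fell from 137 and 163 CPM to 34.0 and 29.9. Both *DUSP6* and *SPRY2* lost more before 2 h than after it, at -1.53 and -0.92 for *DUSP6* and -1.36 and -0.77 for *SPRY2*, whereas *ID2* lost -1.22 and -1.01.

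Early response genes behaved alike in direction. Of 22 tested out of 36 listed, 16 (72.7%, against 17.0% of all genes) were called lower, none higher and 6 did not pass. The median was -1.19. *BTG1*, an anti-proliferative partner of the CCR4-NOT deadenylase, fell from 47.3 and 58.5 CPM at 1 h through 17.4 and 15.9 to 9.23 and 5.44 at 3 h, a change of -2.87 ± 0.20 (limma, adjusted p = 1.6e-06). *MYC*, the growth-promoting transcription factor, went from 27 and 28.2 CPM through 8.26 and 6.46 to 7.44 and 4.33, so that -1.90 of its -2.26 came before 2 h and the 2 h and 3 h values overlapped. It had already dropped from 302 and 215 CPM at 0 h. *KLF5*, a zinc finger factor of gut epithelium, fell from 135 and 124 CPM to 34.6 and 27.1. *JUND*, a JUN family factor, had the highest mean of the list and fell from 167 and 187 CPM to 78.9 and 69.2, or by 1.25 on the log2 scale.

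Other regulators were divided. Of 23 p53 target genes tested out of 26, 11 (47.8%, against 17.0% of all genes) were called lower and 12 did not pass (median -0.43). *SESN2*, a stress-induced inhibitor of mTORC1 signalling, fell from 22.4 and 18.9 CPM to 5.79 and 5.41, *BTG2*, a relative of *BTG1*, from 58.9 and 59.6 CPM to 18.1 and 15.1, and *BBC3*, which encodes the death-promoting protein PUMA, from 16.6 and 21.2 CPM to 7.33 and 4.87. *CCNG1*, the most abundant of them by CPM, was not called, at 555 and 597 CPM before and 468 and 459.6 CPM after. In the Notch pathway, 7 of 25 tested out of 32 (28.0%, against 17.0% of all genes) were called lower and 18 did not pass (median -0.19). The called members with the largest falls were the Notch effectors *HES1* (8.57 and 9.47 CPM to 2.58 and 2.18) and *HEY1* (17.4 and 19.5 CPM to 6.33 and 6.96) and the coactivator *MAML3* (16.9 and 13.6 CPM to 6.65 and 5.85), while the receptor *NOTCH2* was not called, at 380.1 and 251 CPM at 1 h and 430.1 and 426 at 3 h. *HES1* was already at 2.51 and 2.65 CPM by 2 h. Of 154 zinc finger genes named ZNF that were tested out of 476, 72 (46.8%, against 17.0% of all genes) were called lower and none higher (median -0.55). *ZNF579* had the largest fall, from 15.7 and 16.7 CPM to 2.44 and 3.54, followed by *ZNF92* (8.77 and 8.33 CPM to 2.53 and 1.83) and *ZNF317* (24.3 and 19.0 CPM to 5.71 and 5.60), and *ZNF664*, the member with the highest mean, was not called, at 174 and 161 CPM and then 210.1 and 219.8. Under median-of-ratios scaling 51 of the ZNF genes were called lower, against 1276 of all 10203 genes tested rather than 1738.

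The largest falls outside these lists were of varied function. *IRF2BP1* and *IRF2BP2*, paralogous transcriptional corepressors, fell from 21.5 and 20.9 CPM to 4.09 and 2.81 and from 20.3 and 21.7 CPM to 6.39 and 3.19. *PHLDA1*, an early response gene with a role in cell death, fell from 30.5 and 32.9 CPM to 7.27 and 5.63, and *EFNB2*, an ephrin ligand at the cell surface, from 28.4 and 24.6 CPM to 5.88 and 5.85. *CSTF1*, a subunit of the complex that cleaves pre-mRNA before polyadenylation, fell from 22.5 and 24.4 CPM through 10.5 and 10.9 to 5.82 and 4.81. For each of these 5 genes the 3 h values lay wholly below the 1 h values, as they did for 46.3% of all genes tested, while 20.3% lay wholly above.

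Some mRNAs that had scarcely fallen in the first hour of Act D declined afterwards. *CDX2*, a homeobox factor of intestinal identity, stood at 195 and 192 CPM untreated, 169 and 162 after 1 h, then 82.3 and 82.8 and finally 41.4 and 36.9. It lost -1.01 and -1.08 in the 2 later hours, for -2.08 ± 0.08 over both (limma, adjusted p = 4.7e-08), after -0.22 in the first. *DDIT4*, an inhibitor of mTORC1 induced by stress, had 47.3 and 42.1 CPM untreated and 48.8 and 48.1 CPM after 1 h, then 23.1 and 21.1 and finally 10.4 and 12.1. *CXXC5*, a zinc finger protein that binds unmethylated CpG and was chosen here after its values were seen, was at 77.2 and 78.7, 82.8 and 77.2, 49.4 and 43.3, and 22.7 and 22.4 CPM at the 4 times. The snoRNA host *SNHG7* went from 119 and 146 CPM untreated to 150.5 and 178 after 1 h, and was down to 86.7 and 88.6 by 3 h (-0.90), and *SLC2A1*, the glucose transporter GLUT1, was at 228 and 236, 306 and 263, and 190.3 and 185 CPM at the same times (-0.60). For these genes the first-hour and later changes differed in size or sign. No test of that difference was made, as both share the 1 h libraries. The call of *SLC2A1* was lost without replicate 1 at 1 h (-0.49), without replicate 2 at 3 h (-0.58) and under median-of-ratios (-0.45).

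**Figure D2:**
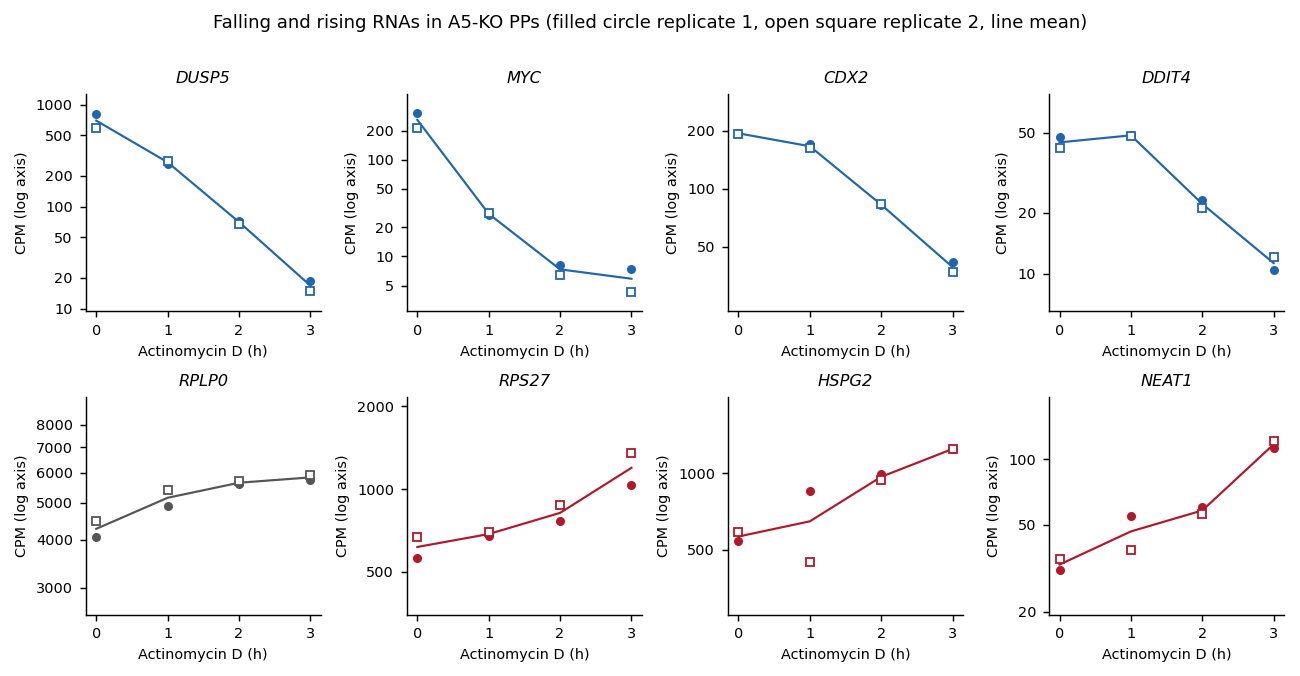
CPM on log axes against hours of Act D for 8 RNAs in A5-KO PPs, with both libraries and their mean at each time; 0 h is untreated. *DUSP5* and *MYC* fell from 0 h on, *CDX2* and *DDIT4* held until 1 h and then fell, *RPLP0* was not called, and *RPS27*, *HSPG2* and *NEAT1* were called higher, with the 2 libraries of *HSPG2* at 1 h far apart (848 and 447 CPM).

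Genes of RNA metabolism and the cell cycle held members of middle half-life. Of 18 m6A writers, erasers and readers tested out of 20, 8 (44.4%, against 17.0% of all genes) were called lower and none higher (median -0.33). The reader *YTHDF2* fell from 55.4 and 60.6 CPM at 1 h through 28.9 and 32.0 to 19.0 and 16.6 at 3 h, which is -1.70 ± 0.11 (limma, adjusted p = 1.1e-06). The reader *YTHDF1* fell from 38.5 and 36 CPM to 12.2 and 14.1, and *WTAP*, the regulatory subunit of the methyltransferase, from 42.4 and 47.6 CPM to 21.4 and 19.4. The catalytic subunit *METTL3* was not called (-0.06), whereas its partner *METTL14* was called at -0.62. The nuclear RNA binding protein gene *HNRNPC*, the member with the highest mean, was not called either (0.15).

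Of 42 genes of the machinery that removes mRNA in the cytoplasm, tested out of 45, 12 (28.6%, against 17.0% of all genes) were called lower and 30 did not pass (median -0.28). As a group they took 0.469% and 0.459% of reads at 1 h and 0.472% and 0.455% at 3 h, and the groups overlapped. *DCP1B*, a decapping cofactor, fell from 9.69 and 11 CPM to 2.75 and 2.69, *CNOT2*, a scaffold of the CCR4-NOT deadenylase, from 51.9 and 53.7 CPM to 21.3 and 17.9, and *CNOT6L*, one of its nucleases, from 10.8 and 9.38 CPM to 3.04 and 4.43. The scaffold *CNOT1* and the 5′ to 3′ exonuclease *XRN1* were not called, at 0.00 and 0.00 on the log2 scale, and *PABPC1*, the poly(A) binding protein gene with the highest mean of the list, was at 0.20. In mitosis 7 of 24 tested out of 26 (29.2%, against 17.0% of all genes) were called lower (median -0.31). The kinases *AURKA* (39.3 and 39.8 CPM to 11.6 and 9.80) and *PLK1* (65.8 and 66.8 CPM to 27.4 and 20.4) led the falls, with the spindle kinesin *KIF23* next (-1.05), and *TOP2A*, the topoisomerase with the highest mean there, was not called, at 357 and 339 CPM and then 384 and 382. Of the splicing regulators 2 of 15 tested out of 17 (13.3%, against 17.0% of all genes) were called lower. They were the kinase *CLK3* (28.2 and 28.8 CPM to 7.55 and 9.64) and the SR protein *SRSF4* (-0.60). *SRSF3*, with the highest mean, was not called (-0.39). The call of *SRSF4* was lost without replicate 2 at 1 h (-0.57), without replicate 2 at 3 h (-0.51) and under median-of-ratios (-0.46).

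Housekeeping lists had medians from -0.18 to 0.00, with a few members called lower in each. The shares called lower were 6.45% for proteasome subunits, 11.1% for synthetases, 5.56% for chaperones and 5.88% for glycolysis, against 17.0% of all genes. For the snoRNA hosts the share was 15.8%, near that of all genes. Of the proteasome subunits 2 of 31 tested out of 39 were called lower, *PSMC6* (54.2 and 66.4 CPM to 36 and 35.6) and *PSMD12* (-0.69), and *PSMB4*, with the highest mean, was at 0.00. Of the aminoacyl-tRNA synthetases 2 of 18 tested out of 20 were called lower, *FARSA* (-0.71) and *RARS1* (-0.67), and *QARS1*, the highest, was not called (-0.01). Among 18 cytosolic chaperonin and heat shock genes tested out of 20, only *DNAJB1*, an inducible HSP40 cochaperone, was called, falling from 52.6 and 54.0 CPM to 19.1 and 17.4, and *HSP90AB1* stood at -0.01. Of the 19 snoRNA hosts tested out of 32, 3 were called lower, namely *SNHG3* (38.4 and 42.5 CPM to 20.7 and 18.8), *SNHG7* and *SNHG15* (-0.76), while *SNHG29*, the highest, was at 0.29 and not called. Their medians were -0.18, -0.08, -0.09 and 0.00, against -0.10 for all genes, and under median-of-ratios scaling those of the synthetases and chaperones turned to 0.06 and 0.06. Under that scaling *FARSA*, *RARS1* and *PSMD12* were no longer called, at -0.56, -0.53 and -0.55, and without replicate 2 at 1 h *PSMD12* was not, at -0.57. In 17 glycolysis genes tested out of 18 only *SLC2A1* was called (median -0.04, or 0.11 under median-of-ratios), and this call was lost under median-of-ratios, at -0.45, and without replicate 1 at 1 h, at -0.49, or replicate 2 at 3 h, at -0.58, while *ENO1*, the enolase with the highest mean, stood at 3619 and 3827 CPM at 1 h and 3626 and 3778 at 3 h.

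Mitochondrial transcripts are made by a polymerase of the organelle and were treated apart. Of 12 tested out of 13, only *MT-ND2*, which encodes a complex I subunit, was called lower, from 3185 and 2760.0 CPM at 1 h through 2249 and 2211 to 1543 and 1443 at 3 h, or -0.99 ± 0.08 (limma, adjusted p = 2.8e-06). *MT-CO1*, the complex IV subunit with the highest mean, was at 0.01, and the list's median was -0.38. Together the 13 mRNAs took 9.24% and 8.33% of reads at 1 h and 7.75% and 7.71% at 3 h. Of the nuclear-encoded respiratory chain genes, 1 of 74 tested out of 82 was called higher (1.35%, against 0.931% of all genes). It was *ATP5ME*, a small ATP synthase subunit that rose from 13.9 and 14.8 CPM to 20.1 and 29.5 (median of the list 0.08, or -0.05 without replicate 1 at 1 h). *ATP5F1B*, the ATP synthase beta subunit with the highest mean, was at 1005 and 1069 CPM and then 1097 and 1083. Without replicate 2 at 3 h *ATP5ME* was no longer called, at 0.48.

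Ribosomal protein and matrix messages held few or no falls. Of 74 cytosolic ribosomal protein genes tested out of 83, none was called lower and 3 (4.05%, against 0.931% of all genes) were called higher. The range was from -0.10 to 0.79 and the median 0.14. As a group they took 11% and 12.9% of reads at 1 h and 12.8% and 13.5% at 3 h, so the groups overlapped. Their median was 0.01 without replicate 1 at 1 h, 0.27 without replicate 2 at 1 h and 0.05 under quantile normalization. *RPLP0*, the ribosomal stalk protein gene with the highest mean, stood at 4916 and 5396 CPM at 1 h and 5731 and 5932 at 3 h and was not called. *RPS27* rose from 674 and 698 CPM through 762 and 876 to 1035 and 1355, a change of 0.79 ± 0.11 (limma, adjusted p = 0.00015). *RPS29* rose from 338 and 298 CPM to 452 and 668, and *RPL30* from 66.9 and 85.8 CPM to 95.2 and 167, and both calls were lost without replicate 2 at 3 h, at 0.51 and 0.33, and that of *RPL30* also without replicate 1 at 1 h, at 0.56. The 9 members under 5 CPM included *RPS18* and *RPS9*, at 0.288 and 2.62 CPM in replicate 1 at 1 h, and how reads of overlapping or duplicated genes were counted is not given in the sources used here. No plasma protein gene of the liver, of 13 tested out of 21, was called in either direction (median 0.06), and *AFP*, the fetal counterpart of albumin, was at 1311 and 1445 CPM at 1 h and 1596 and 1504 at 3 h.

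Extracellular matrix genes had a median of 0.49, the highest of the 20 lists, and the mesenchyme markers one of 0.50. Of the matrix genes 3 of 20 tested out of 22 (15.0%, against 0.931% of all genes) were called higher and none lower. *HSPG2*, which encodes the basement membrane proteoglycan perlecan, went from 848 and 447 CPM at 1 h through 994 and 942 to 1247 and 1242 at 3 h, a change of 1.02 ± 0.20 (limma, adjusted p = 0.0018). *COL1A1*, a fibrillar collagen chain, rose from 20.1 and 15.5 CPM to 29.1 and 29.9, and *NID1*, the basement membrane linker nidogen, from 306 and 222 CPM to 409.9 and 414. *FN1*, fibronectin, had the highest mean and was not called, at 4675 and 3489 CPM at 1 h and 5918 and 5967 at 3 h. In *HSPG2*, *NID1* and *FN1* the lower 1 h value was replicate 2. Without that library no matrix gene passed, *HSPG2* was at 0.55 and *COL1A1* at 0.55, and the list's median was 0.28, beside 0.27 for the ribosomal proteins. Under median-of-ratios scaling 11 matrix and 9 ribosomal genes were called higher. The background was larger there too, with 285 of all 10203 genes tested called higher rather than 95. The mesenchyme markers, which share *COL1A1* with the list, summed to 139 and 133 CPM at 1 h and 202 and 188 at 3 h, and their part in these rises was not tested.

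**Figure D3:**
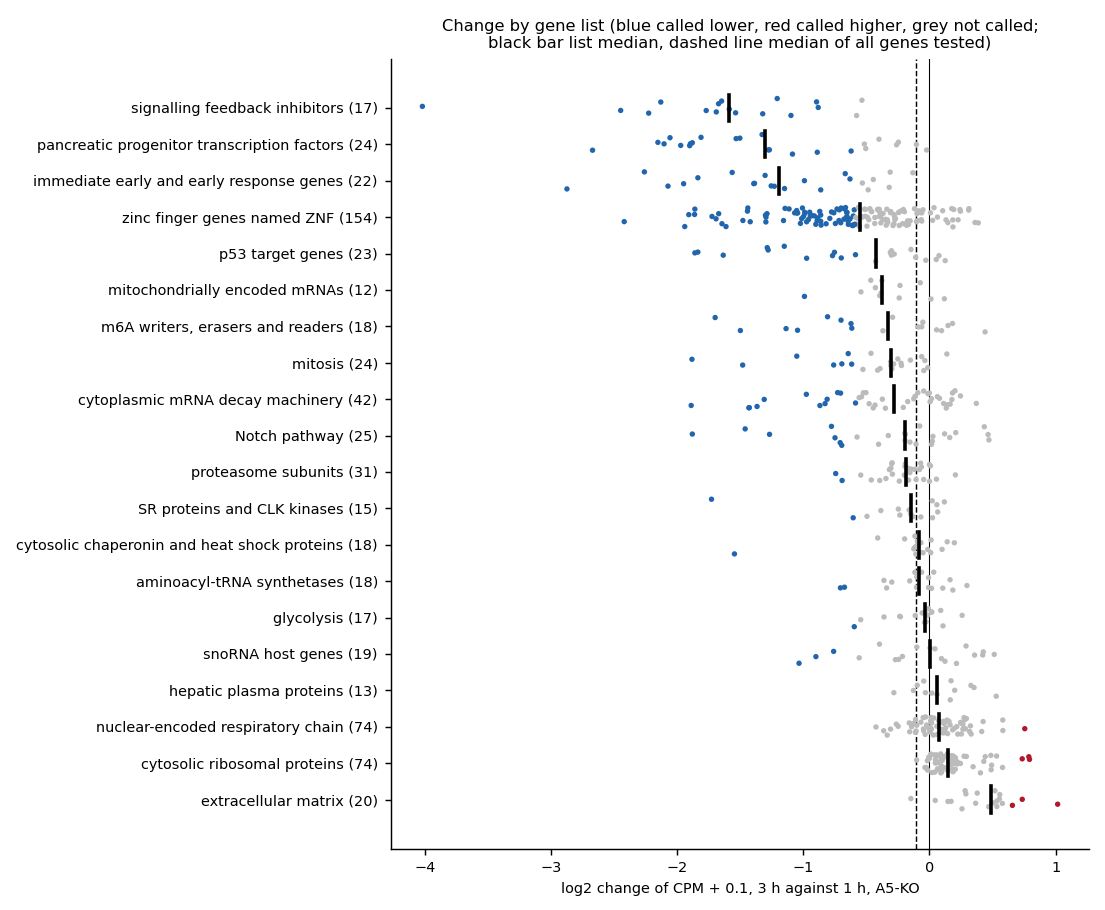
Log2 change from 1 h to 3 h of each tested member of 20 gene lists in A5-KO PPs, with the number tested in brackets, the list median as a black bar and the median of all genes tested, -0.10, as a dashed line. Signalling inhibitors, progenitor factors and early response genes lie to the left with most members called lower (blue), and the ribosomal, respiratory and matrix medians lie right of 0 (the respiratory one at -0.05 without replicate 1 at 1 h) with 3, 1 and 3 members called higher (red).

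The other called rises were few and many rested on single libraries. *ADAM9*, a membrane-bound metalloprotease gene, went from 99.4 and 80.5 CPM at 1 h through 142 and 150.5 to 158 and 156 at 3 h, which is 0.81 ± 0.09 (limma, adjusted p = 4.6e-05). The nuclear noncoding RNA *NEAT1*, the scaffold of paraspeckles, was at 54.8 and 38.5, 60.2 and 56.2, and 113 and 121 CPM at those times, or 1.35 ± 0.13 (limma, adjusted p = 1.5e-05). *ADAM9*, *NEAT1* and *RPS27* remained called with any 1 library left out, as did 51 of the 54 falls of genes named by rule. The exceptions were *SLC2A1*, *PSMD12* and *SRSF4*, which stayed negative but came under the 1.5-fold limit. *IGF2*, the fetal growth factor, was at 2023 and 830.2 CPM at 1 h and 2964 and 2713 at 3 h, and its change of 1.13 became 0.49, not called, without replicate 2 at 1 h, and it was not called at 1.07 and 1.19 without replicate 1 or 2 at 3 h. Without replicate 2 at 1 h the call was also lost for *HIPK2*, a kinase that acts on p53 (127 and 85.4 CPM to 188 and 192), *UVSSA*, a DNA repair factor (15.5 and 10.0 CPM to 22.3 and 22.3), *MAN2A2*, a Golgi mannosidase (48.8 and 33.0 CPM to 67.0 and 65.9), and *CERS6*, a ceramide synthase (31.1 and 20.4 CPM to 41.6 and 41.6), at 0.58, 0.52, 0.44 and 0.42. Without that library 46 genes in all were called higher, 30 of them among the 95, and without replicate 1 at 1 h 305 were. Of 184 lncRNAs tested, 24 were called lower (13%, against 17.0% of all genes) and 7 higher (3.8%, against 0.931%). *LINC00511* fell from 24.4 and 25.1 CPM to 13.5 and 10.6, and *IGF2-AS* from 26.9 and 30.3 CPM to 12.9 and 11.7, though reads of *IGF2-AS* and of its antisense partner *IGF2* cannot be told apart if strand was not used in counting.

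Exon number, which the choice of genes did not use, varied with the change. For 9788 of the 9796 protein-coding genes tested, the canonical GENCODE v44 transcript gave the gene structure. Genes of 1 exon changed by a median of -0.59 and 50.4% of these 135 were called lower, and of 306 genes with 2 exons 48.4% were, whereas of 1514 genes with over 20 exons 9.45% were called lower and 2.31% higher, with a median of 0.03. The median number of exons rose from 3 in the 46 genes that fell by at least 2 log2 units to 7, 9, 10 and 12 in the slower classes, and exons per kb of coding sequence rose from 3.05 through 4.61, 6.13 and 7.71 to 8.03. Across these genes, which are not independent replicates, Spearman's rho between the change and exons per kb was 0.28 (n = 9788; a measure added after the data were seen), and between the change and exon number 0.21. In WT these were -0.04 and -0.22, values that rest on the libraries labelled WT at 3 h, described below. Both A5-KO values use replicate 2 at 1 h, and no rho without that library was taken. Replicate 2 at 1 h was lower than replicate 1 by a median of 0.22 log2 units for genes with over 20 exons but higher by 0.01 for single-exon genes. Without it the median for over 20 exons turned to -0.08, those for 3 to 5, 6 to 10 and 11 to 20 exons were -0.11, -0.12 and -0.13, and those for 1 and 2 exons were -0.60 and -0.58. The share called lower was then 48.1% for 1 exon, 48.0% for 2 and 12.3% for over 20, and the share called higher among the last was 0.198%.

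**Figure D4:**
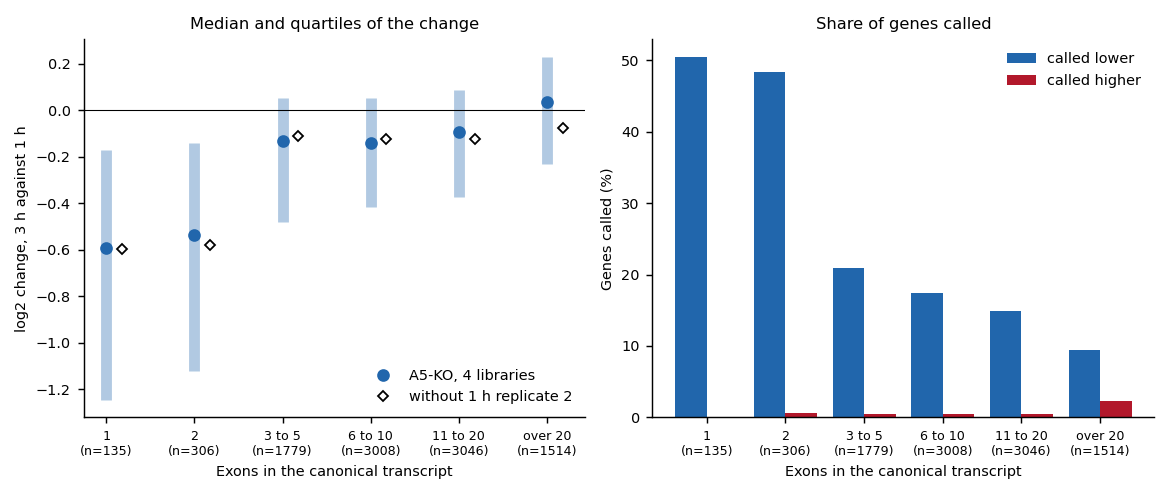
Left, median (circle) and quartiles (bar) of the log2 change from 1 h to 3 h in A5-KO PPs by exon number, with the median without replicate 2 at 1 h (diamond); right, percentage of genes called lower (blue) and higher (red), with gene numbers under the axis. About 50.4% of single-exon genes were called lower against 9.45% of genes with over 20 exons.

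Sequence features of the 3′UTR were compared over the same classes, of which the fastest held many genes that had entered only through their level at 1 h. The AU-rich nonamer TTATTTATT, a motif bound by decay factors, was searched on the transcript strand and was held by 4 of the 46 genes that fell by at least 2 log2 units (8.70%), by 10.4%, 11.5% and 9.01% of the next classes, by 9.46% of the genes that rose, and by 9.62% of all. Its shorter core ATTTA, which lies within it, was held by 71.7% of those 46 and by 75.2% of all. Neither motif was more frequent in the fastest class. GGACT, a sequence of the kind in which m6A is placed, was counted per kb of 3′UTR on the transcript strand, a measure added after the data were seen. Its median density went from 1.16 in the fastest class through 0.81, 0.70 and 0.58 to 0.57 in the genes that rose, with 0.61 over all, and rho with the change was -0.06 (n = 9697). The 3′UTR had a median length of 1142 bases in that class and 1410 over all, and rho with the change was 0.04. The share of G or C at the codon position that is most free to vary was 72.9% in the fastest class and 57.9% over all, but rho was -0.00. To show what such an element looks like in a fast-falling message, the genome around the first nonamer of 3 holders is given 5′ to 3′ on the transcript strand from GRCh38, with the motif in capitals, at chr12:76029786-76029815 (minus strand) for *PHLDA1*, chr16:52438959-52438988 (minus strand) for *TOX3* and chr13:73077177-73077206 (plus strand) for *KLF5*.
*PHLDA1*: tgatttatgaTTATTTATTagttttttttt
*TOX3*: gatgccttttTTATTTATTcaggctatacc
*KLF5*: ttgtttatctTTATTTATTttgtggtaata
*FLRT2* was the fourth holder among the 46, and *DUSP5*, *MYC* and *PDX1*, also among them, held no nonamer in the 3′UTR used. A match is a description of letters rather than a site of action.

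Comparison with WT is limited by the WT libraries. Over 31 genes that were higher in A5-KO than in WT at 0 h by over 1.5 log2 units, and 17 that were lower, each library was placed on the log2 distance from WT at 0 h (0%) to A5-KO at 0 h (100%), a check added after the data were seen. The 6 A5-KO libraries at 1 to 3 h lay at medians between 87.8% and 110.4%, and the WT libraries at 1 h between -2.32% and 10.00%. The libraries labelled WT at 3 h lay at 47.2% and 49.8% for the first gene set and 52.3% and 56.1% for the second, and WT replicates 1 and 2 at 2 h lay at 6.94% and 21.8% for the first and 19.2% and 30.6% for the second. *ALKBH5* in WT went from 133 and 126 CPM at 1 h through 107 and 83.4 to 48.3 and 33.7 in the 3 h libraries. In their profile over all tested genes the libraries labelled WT at 3 h were also as near to WT at 0 h (r from 0.963 to 0.979) as those at 1 h (0.954 to 0.971), whereas A5-KO moved away from its own 0 h, from 0.937 to 0.969 at 1 h to 0.872 to 0.910 at 3 h. The cause was not tested.

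**Figure D5:**
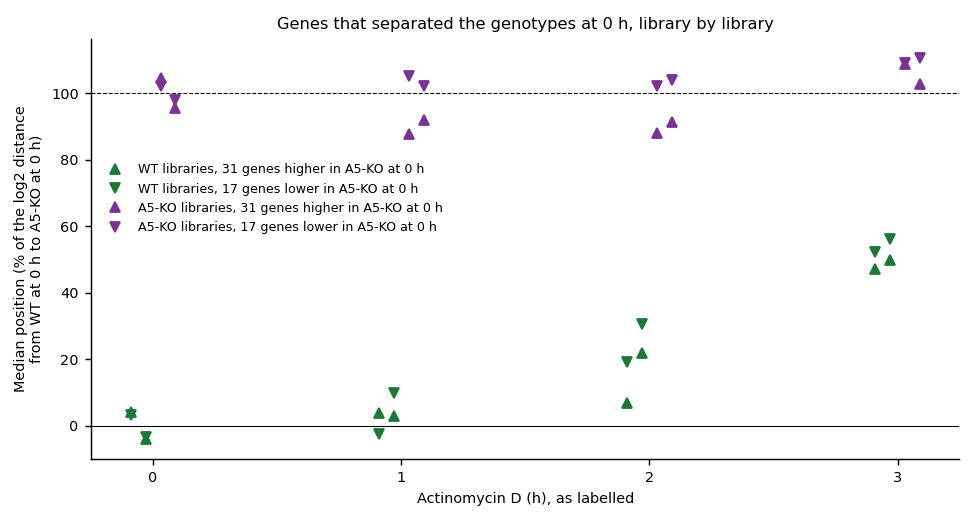
Median position of each library between WT at 0 h (0%) and A5-KO at 0 h (100%) on the log2 scale, over 31 genes higher and 17 genes lower in A5-KO at 0 h, against hours of Act D. The A5-KO libraries stay near 100%, and the libraries labelled WT at 3 h lie near the middle, between 47.2% and 56.1%.

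The difference between genotypes was therefore also read with 2 h in place of 3 h, which shortens the interval, with and without those libraries. In all 12 libraries, the change from 1 h to 3 h was more negative in A5-KO than in WT for 1548 genes (15.2%) and more positive for 118 (1.16%), with 649 and 38 without A5-KO replicate 2 at 3 h and 926 and 57 without WT replicate 2 at 3 h. *DUSP5* differed by -3.92 ± 0.54 (limma, adjusted p = 0.0022), with 229 and 279.9 CPM in WT at 1 h and 210.3 and 266 in the libraries labelled WT at 3 h. *PDX1* differed by -2.38 ± 0.49 (limma, adjusted p = 0.0075), with WT values of 43.7 and 50.5 CPM and then 49.1 and 66.4. With 2 h in place of 3 h over the 12 libraries, limma called 0 genes more negative and 1 more positive. At an unadjusted p below 0.05 and over 1.5-fold it gave 769 more negative and 87 more positive. The 1 gene was *CP*, the copper carrier ceruloplasmin, which in A5-KO went from 228 and 189 CPM to 369 and 363. In that fit *DUSP5* differed by -1.29 ± 0.54 (limma, adjusted p = 0.24) and *PDX1* by -1.16 ± 0.49 (limma, adjusted p = 0.24). Without WT replicate 2 at 2 h and the libraries labelled WT at 3 h, these differences were -0.39 and -0.37. The only WT library then left at 2 h, assumed to vary like the others, gave 86.2 CPM for *DUSP5* and 23.6 CPM for *PDX1*. The parts of the shorter interval and of the left-out libraries in these values were not tested. A p that misses the threshold does not show that the genotypes decayed alike.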

How the data were processed

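RNA-seq of WT and A5-KO PPs was analysed for 16 libraries. The authors deposited CPM per gene and library, made per the labels with fastp and HISAT2 2.1.0 on hg38; the read counter, the annotation and its use of strand are not given in the sources used here. The deposited TPM of organoids are not used here. Spike-in RNA was added by the authors but is not used here. Dividing the deposited CPM by the value of 1 read gave whole reads for 100.0% of values (within 0.01 of a read), between 30516384 and 35206514 per A5-KO library at 1 to 3 h and between 30740452 and 34972686 in WT. Of 60623 identifiers, 60369 were matched to a symbol in GENCODE v44.

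Log2(CPM + 0.1) of the 6 A5-KO libraries at 1, 2 and 3 h was fitted with limma 3.58.1 (R 4.3.3) with a trend, for genes averaging 5 CPM or more in the libraries at 1 and 3 h. The genotype difference used 12 libraries. The recovered reads were also tested with DESeq2 1.42.0 and edgeR 4.0.16, and other scalings, filters, pseudocounts, a replicate block and leaving out each library served as alternatives. The steps were tested on simulated data. Equal replicate numbers were not treated as pairs in the main fit, and the labels do not say whether they mark a shared batch. Named genes were, in each direction, the largest called protein-coding changes (14 falls with at least 20 CPM at 1 h, 12 rises with at least 20 CPM at 3 h), up to 3 falls, 2 rises and the most abundant member of each list, the 6 largest genotype differences each way, 3 lncRNAs each way and 6 genes of the study. *CXXC5*, *CP*, *TOX3*, *FLRT2*, *SKIL*, *SPRY4*, *NID1*, *METTL3*, *METTL14*, *CNOT1*, *XRN1*, *RPS9* and *RPS18* were chosen after their values were seen. A gene that the rule names is not reported here. The genes and lists were chosen with earlier results of these data known.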

Additional observations from a re-analysis of the deposited data

Results flagged for a closer look

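The change from 1 h to 3 h differed between A5-KO and WT by the test of the difference itself, more negative in A5-KO for 1548 genes and more positive for 118. Among the named genes with the most negative difference were *DUSP5* (-3.92), *MYC* (-3.13), *BTG1* (-3.06), *IRF2BP1* (-2.80), *IRF2BP2* (-2.71) and *DUSP6* (-2.65). Those with the most positive were *HSPG2* (1.21), *HIPK2* (1.16), *RPS29* (1.12), *RPS27* (1.09), *DCHS1*, a protocadherin gene (1.00), and *PABPC1L*, a relative of the poly(A) binding protein gene (0.92). Of the genes of the study, *PDX1* (-2.38), *SOX9* (-2.22), *NKX6-1* (-2.0) and *MNX1* (-1.20) were more negative in A5-KO, and *ALKBH5* (1.31) was more positive, falling by 1.68 on the log2 scale in WT and by 0.37 in A5-KO. Each of these values rests on the libraries labelled WT at 3 h, which lay between the genotypes on genes that differed at 0 h. The A5-KO rises of *DCHS1* and *PABPC1L* were no longer called without A5-KO replicate 2 at 1 h, at 0.31 and 0.57. That of *DCHS1* was also lost without A5-KO replicate 2 at 3 h, at 0.57.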

How the results depend on the processing

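The A5-KO falls from 1 h to 3 h numbered 1738, 1749 with a replicate block, 974 under quantile normalization, 2954 by adjusted p alone and 1426 to 1887 with 1 library left out. The rises numbered 95, and 107 with the block, 162 at a mean of at least 1 CPM, 219 with edgeR, 236 with DESeq2, 285 under median-of-ratios scaling, 528 under quantile normalization, 782 by adjusted p alone and 46 to 305 with 1 library left out. The falls were 85.1% of calls with DESeq2, 86.4% with edgeR, 81.7% under median-of-ratios and 64.9% under quantile normalization, against 94.8%. From 1 h to 2 h, median-of-ratios gave 564 falls and 135 rises, and leaving out 1 library 461 to 1033 and 44 to 178. From 2 h to 3 h leaving out 1 library gave 212 to 498 falls and 43 to 48 rises. Genes that fell by at least 2 log2 units numbered 46, but 28 under median-of-ratios, 100.0 at a mean of at least 1 CPM and 36 to 86 with 1 library left out, and those falling by 1 to 2 units 657, but 1073 at that lower limit. The median of all genes, -0.10, was 0.041 under median-of-ratios and 0.0486 under quantile normalization. Left-out libraries that moved a count by over 1.5 times were, for rises from 1 h to 3 h, both at 1 h (305 and 46) and replicate 2 at 3 h (63), for the fastest falls replicate 1 at 3 h (86), for rises from 1 h to 2 h replicate 1 at 1 h (178) and replicate 2 at 2 h (44), and for rises from 2 h to 3 h all 4 (46, 44, 48 and 43). For falls from 1 h to 2 h they were both at 2 h (552 and 461). For falls from 2 h to 3 h they were both at 2 h (214 and 234) and replicate 2 at 3 h (212).

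The more negative differences from WT numbered 1548, and 801 under quantile normalization, 649 to 1509 with 1 library left out and 0 with 2 h in place of 3 h. The more positive numbered 118, and 386 with DESeq2, 399 with edgeR, 409 under median-of-ratios, 457 under quantile normalization, 65 with no filter, 213 by adjusted p alone, 191 by unadjusted p with the fold limit, 37 to 298 with 1 library left out and 1 with 2 h in place of 3 h, whether or not WT replicate 2 at 2 h and the libraries labelled WT at 3 h were kept, a choice made after seeing the data. WT replicates 1 and 2 at 1 h left out gave 682 and 1018 more negative and 48 and 50 more positive, A5-KO replicates 1 and 2 at 1 h 298 and 37 more positive, and replicate 1 at 3 h 68 (A5-KO) and 182 (WT). Deviations of A5-KO libraries with equal replicate numbers correlated weakly between times (r from -0.00362 to 0.147), which cannot show that they were unpaired. The replicate block changed no count by over 1.5 times. *ALKBH5* turned from -0.37 to 0.0169 under quantile normalization. *ONECUT1*, at -0.02, turned to 0.10 with DESeq2, 0.0933 with edgeR, 0.12 under median-of-ratios, 0.38 under quantile normalization, and ranged from -0.0824 to 0.0375 with 1 library left out. A tally of alternative values of single genes covered only a part of the named genes. In it 815 values stayed on their side of the threshold, 48 lost a call and 7 changed sign. The changes of sign in it were all for *ALKBH5* and *ONECUT1*, which were not called. List members such as *PSMD12*, *FARSA* and *RARS1*, whose calls were lost under median-of-ratios, were not in it, so its counts do not cover every gene described. The causes were not tested. With 2 libraries per time, each library carries much of a value.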
